A study of Homo sapiens with 2 samples.

Results

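Of 7446 entries listed for both ZC3H7A and ZC3H7B, 20 transcripts carried their clusters almost only in coding sequence. They were the genes with at least 8 clusters in each library and at least 90% of those clusters in coding sequence in each. A cluster is a stretch of transcript where overlapping crosslinked reads piled up. The transcripts were chosen by these measured cluster numbers, so the high coding shares below describe the choice and are not findings. The data are PAR-CLIP libraries, in which RNA labelled with a photoreactive nucleoside is crosslinked to a protein by UV light, pulled down with it and sequenced. The cells were HEK293, a line derived from human embryonic kidney. One library was made for each protein, n = 1, both named replicate 1, so no difference between the proteins could be tested and no value has a replicate check. In both, the Flag/HA-tagged protein was induced by 24 h of doxycycline at 1 µg/mL, RNA was labelled with 100 µM 4-thiouridine for 16 h, cells were irradiated at 365 nm and bound RNA was trimmed with RNase T1. No untagged or uninduced library was analysed here, and the labels also describe the culture of Flp-In T-REx cells without saying which cells carried the tagged protein. The sources used here do not state its promoter or whether a line was 1 clone.

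ZC3H7A and ZC3H7B are related CCCH zinc finger proteins that bind RNA, and the series concerns how both act on messenger RNAs in a way that depends on codons. The coding sequence is the part of a messenger RNA that ribosomes read codon by codon, while the 3' UTR is where many RNA-binding proteins and microRNAs act. Codon content is known to influence how long a messenger RNA lasts in human cells. Cluster numbers also depend on the length of the coding sequence and the amount of transcript, and neither was analysed here. The submitters' processing notes name genome build hg19. The tables give numbers per gene and no cluster positions.

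On genes the ZC3H7A library held 3779662 reads in 51808 clusters and the ZC3H7B library 2409465 reads in 99805 clusters. Each distinct read was counted 12.6 times on average in the first and 1.99 times in the second. Intervals in the text are exact Clopper-Pearson 95% intervals and cover counting error only. Since copies made by PCR are not separate molecules, those on reads are too narrow even so. Coding sequence held 42.7% of the clusters with ZC3H7A tagged and 29.6% with ZC3H7B tagged. Each tagged protein's own transcript had more reads in its own library, 82704 against 158 for ZC3H7A and 3768 against 1362 for ZC3H7B. Of 5 genes used as a check on the cell line, VIM, LIN28B and NEFL had clusters in both libraries, and NEFM and PAX2 had no called cluster in either.

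Among the 1993 genes with at least 8 clusters in both libraries, 87 (4.37%) reached a coding share of 90% with ZC3H7A and 34 (1.71%) with ZC3H7B. The 20 transcripts that reached it in both are 1.00% of these genes. Where values are paired without names, ZC3H7A comes first. The other 1973 had a median coding share of 40.0% and 25.9%. The 20 held 308 coding clusters of 319 with ZC3H7A tagged, or 96.6%, and 514 of 549 with ZC3H7B tagged, or 93.6%. The rule fixed both pooled shares at 90% or more, so no interval is given for them. They carried 1.39% of all coding clusters with ZC3H7A and 1.74% with ZC3H7B. All 20 are protein-coding genes in the RefSeq gene table, where 19 matched by symbol and AARS matched as a synonym of AARS1.

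**Figure D1:**
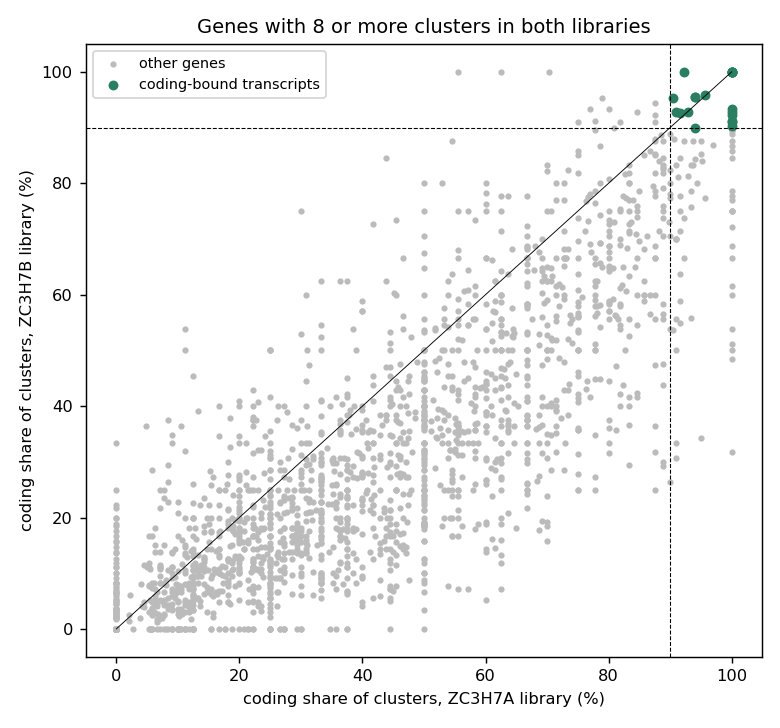
Coding share of clusters (%) in the ZC3H7A library (horizontal) and the ZC3H7B library (vertical) for 1993 genes with at least 8 clusters in both, 1 point per gene. Dashed lines mark 90%, the thin diagonal marks equal shares, and the 20 coding-bound transcripts (green) lie in the upper right corner because the rule placed them there.

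The edge of the group was thin. MPHOSPH10 lay just inside, with 9 of 10 coding clusters in the ZC3H7B library, and FAT1 after it with 103 of 114. Just outside stood COPB1, a subunit of the COPI vesicle coat, with 10 of 10 with ZC3H7A and 17 of 19 with ZC3H7B. Also outside, RNF139, a ubiquitin ligase, had 11 of 11 and 16 of 18. SUPT5H, a transcription elongation factor, had 9 of 10 and 8 of 9, and CENPF, a kinetochore-associated protein, 54 of 61 and 70 of 79. One cluster more or less would have moved several of these across the line. For MPHOSPH10 the interval of the coding share reached down to 55.5% in the ZC3H7B library.

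In 5 transcripts every cluster of both libraries was coding. IRS4, an insulin receptor substrate that relays growth factor signals, had 38 of 38 clusters with ZC3H7A and 29 of 29 with ZC3H7B. With these numbers the intervals of its share reached down to 90.7% and 88.1%, the highest lower bounds among the 20 transcripts in both libraries. The rule selected on these shares, so the bounds test nothing. FAM200A, which derives from a domesticated DNA transposon, had 12 of 12 and 17 of 17. GNL2, a nucleolar GTPase of large ribosomal subunit assembly, had 10 of 10 and 13 of 13. GEMIN4, a component of the SMN complex that assembles spliceosomal particles, had 11 of 11 and 10 of 10. USO1, the p115 tether of vesicles between the endoplasmic reticulum and the Golgi, had 8 of 8 in each, the fewest the rule allowed. Among the 1973 other genes with as many clusters, none had all clusters coding in both libraries, which the rule makes certain.

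The proteins encoded by the 20 transcripts fall into several known roles. Several act in the nucleus. SETD2, the histone methyltransferase that marks transcribed gene bodies, had 22 coding clusters of 24 with ZC3H7A and 50 of 54 with ZC3H7B. RLF, a zinc finger transcription factor, had 18 of 18 and 48 of 52. HTATSF1, a factor of splicing and transcription elongation, had 16 of 17 and 21 of 22. MLH3, a mismatch repair and meiotic crossover protein, had 10 of 10 and 14 of 15. FAM111B, a protease of the nucleus, had 11 of 11 and 20 of 22. SETD2 thus had 2.25 times and RLF 2.89 times as many clusters in the ZC3H7B library, against 1.29 times for HTATSF1. The median of other genes with at least 8 clusters in both was 1.56 times.

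The next transcripts encode proteins of cell division and of ribosome assembly. ASPM, which organises spindle poles, had 13 coding clusters of 14 with ZC3H7A and 39 of 42 with ZC3H7B. BIRC6, a very large inhibitor of apoptosis with ubiquitin-conjugating activity, had 9 of 9 and 31 of 34. ERCC6L, the DNA translocase PICH of anaphase bridges, had 11 of 11 and 13 of 14. ASPM thus had 3.0 times and BIRC6 3.78 times as many clusters with ZC3H7B tagged. CEBPZ, a ribosome assembly factor also known as NOC1, had 22 of 23 and 23 of 24. MPHOSPH10, a component of the small subunit processome, had 16 of 17 and 9 of 10. With GNL2, the ribosome assembly transcripts thus had 0.59 to 1.3 times as many clusters in the ZC3H7B library as in the ZC3H7A library. The median of other genes with at least 8 clusters in both was 1.56 times. These folds come from the cluster numbers that the rule used, and no difference between roles was tested.

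The remaining transcripts encode proteins of the cell surface, the cytoplasm and translation. FAT1, a giant protocadherin, stood apart in its numbers, with 24 coding clusters of 24 with ZC3H7A and 103 of 114 with ZC3H7B. Its 103 ranked 2 among all genes of the ZC3H7B library by coding clusters, and its 24 ranked 34 in the ZC3H7A library. AHNAK, a very large scaffold protein, had 16 of 17 and 21 of 22. TAX1BP1, an autophagy receptor, had 10 of 11 and 13 of 14. AARS, the alanyl-tRNA synthetase, had 12 of 13 and 12 of 12, and ASNSD1, a protein with an asparagine synthetase domain, had 19 of 21 and 20 of 21. By coding clusters IRS4 ranked 7 with ZC3H7A and 59 with ZC3H7B, so its order against FAT1 was opposite in the 2 libraries.

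**Figure D2:**
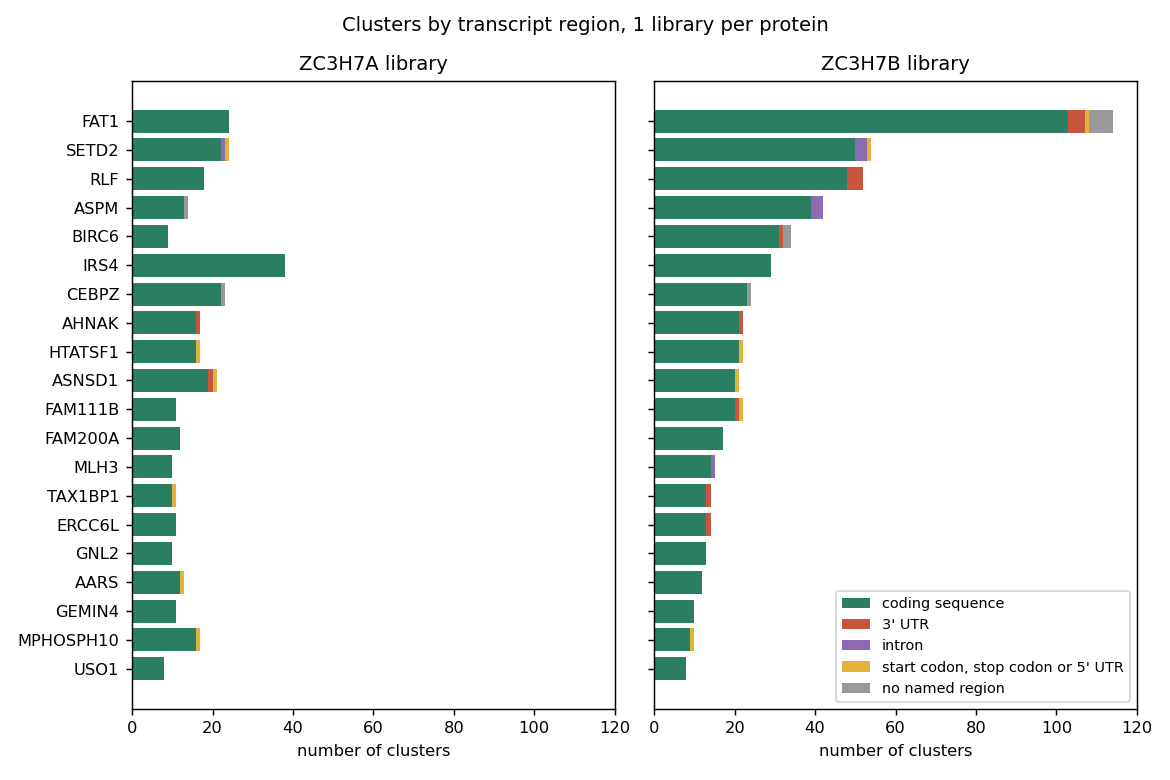
Number of clusters (horizontal, linear, from 0) by transcript region for each of the 20 transcripts, ordered by coding clusters in the ZC3H7B library, in 1 library per protein. Coding sequence fills nearly every bar, and FAT1 reaches 114 clusters in the ZC3H7B library against 24 in the ZC3H7A library.

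Across the 20, 14 had more clusters with ZC3H7B tagged, 4 had more with ZC3H7A tagged and 2 had equal numbers. The median transcript had 1.29 times as many clusters with ZC3H7B tagged, ranging from 0.59 for MPHOSPH10 to 4.75 for FAT1. Other genes with at least 8 clusters in both had 1.56 times as many. Counted in coding clusters alone, the order turned, with a median fold of 1.31 for the 20 transcripts and 1.0 for the others that had a coding cluster in the ZC3H7A library. The rule required coding clusters in both libraries, so that comparison is a description of the choice.

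The few clusters outside coding sequence were spread over several regions. In the ZC3H7A library there were 11. Start codons had 3, on AARS, ASNSD1 and TAX1BP1, and stop codons 2, on HTATSF1 and SETD2. The 3' UTR had 2, on AHNAK and ASNSD1, the 5' UTR 1, on MPHOSPH10, an intron of SETD2 1, and no region was named for 2. In the ZC3H7B library there were 35, of which 13 lay in the 3' UTR, 7 in introns, 5 at stop codons and 1 at a start codon, and 9 had no named region. FAT1 held 11 of the 35, of which 4 were in the 3' UTR and 6 had no region name. RLF had 4 in the 3' UTR, and the 7 intronic clusters lay on SETD2, ASPM and MLH3. AHNAK had 1 cluster in the 3' UTR in both libraries. HTATSF1 and SETD2 each had 1 cluster at the stop codon in both. In 12 of the 20 transcripts neither library had a 3' UTR cluster, and this held for 67 of the 1973 others (3.40%), a difference that the rule itself favours.

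The rule used cluster numbers and no read numbers, although reads were summed over the same clusters. IRS4 had the most in the ZC3H7A library, 9042 reads made of 415 distinct reads, and 1871 reads made of 786 distinct reads in the ZC3H7B library. Among all genes by reads it ranked 24 with ZC3H7A and 175 with ZC3H7B. CEBPZ had 2785 and 563 reads, ASNSD1 1878 and 604, and FAM200A 1469 and 276, each higher with ZC3H7A tagged. SETD2 had 1387 and 1584 reads, RLF 1369 and 1576, and FAT1 812 and 2596, each higher with ZC3H7B tagged. Lowest in reads were BIRC6 in the ZC3H7A library, with 283 against 375, and USO1 in the ZC3H7B library, with 67 against 372. These counts are not scaled to library size. Of the 20, 16 had more reads in the larger ZC3H7A library, beside 72.1% of other genes with at least 8 clusters in both. Distinct reads ran the other way, with 19 of 20 higher in the ZC3H7B library, beside 98.1% of those other genes. MPHOSPH10 was the exception, with 95 in the ZC3H7A library against 90.

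To compare them with other genes, log2 ratios of reads in the ZC3H7B library over the ZC3H7A library were shifted to put the median gene of 7168 at 0. These were the genes listed in both libraries with at least 20 reads summed, and all 20 transcripts passed that minimum. The median of the 20 was -1.08, with 16 below 0 and 4 above. Other genes with at least 8 clusters in both had a median of -0.10, and 54.5% of them lay below 0. A gene was called higher in a library where its whole interval lay beyond 2-fold. By this rule 10 of the 20 were called higher in the ZC3H7A library, beside 18.0% of all genes compared and 16.9% of the other genes with at least 8 clusters. In the opposite direction 1 was called, FAT1, beside 18.2% of all genes compared and 11.1% of the other genes with at least 8 clusters. Of the 137 such genes whose lower coding share of the 2 libraries was 70 to 90%, 5.84% were called that way. That is near the 5% of the 20. These ratios describe 1 pair of libraries and not the conditions, and their read sums come from clusters called separately in each library.

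The transcript farthest towards the ZC3H7A library was MPHOSPH10, with 1384 and 142 reads and a log2 ratio of -2.79 (-3.05 to -2.54). USO1 followed at -1.98 (-2.38 to -1.60), FAM200A at -1.92 (-2.11 to -1.73), CEBPZ at -1.81 (-1.95 to -1.68) and IRS4 at -1.78 (-1.85 to -1.71). The group of 10 was completed by AARS at -1.57, TAX1BP1 and GEMIN4 at -1.37, GNL2 at -1.22 and ASNSD1 at -1.14. Among the 10 were CEBPZ, GNL2 and MPHOSPH10 at 2785, 821 and 1384 reads with ZC3H7A and 563, 250 and 142 with ZC3H7B. Of 62 ribosome assembly genes compared in all, 19 were called higher with ZC3H7A and 10 with ZC3H7B. Of all genes compared, 18.0% and 18.2% were called in these directions. URB2, for instance, stood at 0.63. The interval of HTATSF1, -1.17 to -0.86, and that of AHNAK, -1.22 to -0.78, crossed the 2-fold line. ERCC6L stood at -0.73 and MLH3 at -0.57.

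FAT1 was farthest in the other direction, at 2.17 (2.06 to 2.29). BIRC6 came next at 0.90 (0.67 to 1.13), then RLF at 0.70 (0.59 to 0.80) and SETD2 at 0.68 (0.58 to 0.79), none of them called. ASPM at -0.19 (-0.35 to -0.03) and FAM111B at -0.22 (-0.37 to -0.08) stood near the median gene. The 4 transcripts above 0 were those with the most coding clusters in the ZC3H7B library except for ASPM, whose 39 exceeded the 31 of BIRC6. Reads and clusters come from the same libraries, so this order is not independent of the cluster numbers given above.

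**Figure D3:**
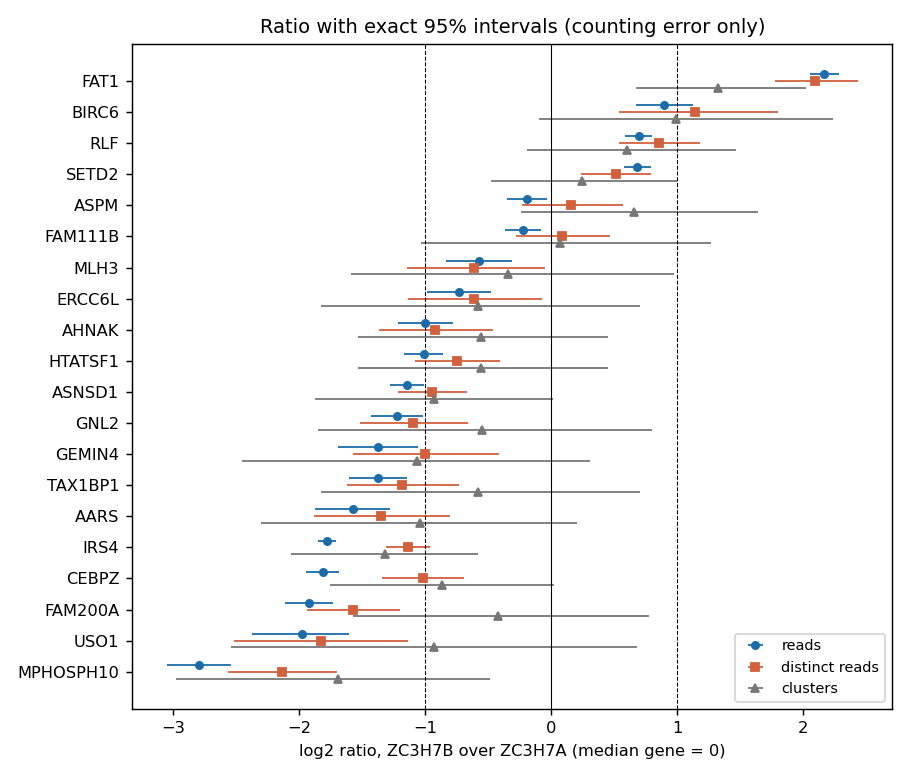
Log2 ratio of the ZC3H7B library over the ZC3H7A library (median gene = 0) for each of the 20 transcripts, from reads (circles), distinct reads (squares) and clusters (triangles), with exact 95% intervals for counting error. Dashed lines mark 2-fold. FAT1 lies above 2-fold in reads and distinct reads, and MPHOSPH10 lies lowest in all 3 measures.

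The number of calls rested on how reads were counted. With distinct reads in place of reads the median of the 20 was -0.93, and 3 were called higher in the ZC3H7A library, FAM200A, MPHOSPH10 and USO1, beside 10.1% of all genes compared. FAT1 was again the 1 called higher in the ZC3H7B library, at 2.10 (1.77 to 2.44), beside 7.28%. CEBPZ moved from -1.81 to -1.02 and IRS4 from -1.78 to -1.13. Both had been counted more often per distinct read than the library average of 12.6, 23.6 times for CEBPZ and 21.8 times for IRS4 in the ZC3H7A library. For the median of the 20 this number was 11.4, close to the 11.4 of the other genes with at least 8 clusters. ASPM and FAM111B changed sign with distinct reads, to 0.16 and 0.09, with intervals that held 0. In clusters none of the 20 was called, beside 0.223% and 0.321% of all genes compared. Scaled to total reads in place of the median gene, 6 were called higher in the ZC3H7A library, beside 15.5% of all genes compared.

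Reads were spread over the clusters unequally. The median transcript of the 20 had 62.4 reads per cluster in the ZC3H7A library, beside 57.1 for other genes with at least 8 clusters, and 15.2 in the ZC3H7B library, beside 23.6. In distinct reads per cluster the medians were 5.15 beside 5.05, and 8.94 beside 12.5. In reads per cluster, the 137 genes whose lower coding share was 70 to 90% had medians of 55.8 and 19.4. In the ZC3H7B library these too lay below the other genes. IRS4 had the deepest clusters in both libraries, with 238 and 64.5 reads per cluster. FAT1, with the most clusters, had 33.8 and 22.8. USO1, with the fewest, had 46.5 and 8.38.

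T-to-C conversion marks the crosslinked 4-thiouridine, and its share of reads was not part of the rule. Averaged over the clusters of a gene, it had a median of 95.4% over the 20 transcripts with ZC3H7A and 91.1% with ZC3H7B. For other genes with at least 8 clusters in both these medians were 93.3% and 89.5%. Over all 7218 genes listed in both libraries they were 96.6% and 90.6%. The 20 thus lay below all genes with ZC3H7A and above them with ZC3H7B. Each gene's median over clusters was also taken in place of its mean. The 20 and the other genes with at least 8 clusters were then both at 100% with ZC3H7A. With ZC3H7B they were at 94.5% and 91%. Whether the cluster calling set a minimum on conversion is not stated in the sources used here. The 20 ranged from 89.9% (IRS4) to 98.0% (BIRC6) in the ZC3H7A library. In the ZC3H7B library they ranged from 85.2% (MPHOSPH10) to 93.7% (GEMIN4). The share was higher in the ZC3H7A library for 19 of the 20, as it was for 82.1% of the other genes. HTATSF1 was the exception, at 90.6% and 92.2%. IRS4 was the lowest of the 20 with ZC3H7A and 86.1% with ZC3H7B, and it had the most reads in the ZC3H7A library.

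The read ratio stepped with the coding share over all genes with at least 8 clusters in both libraries. Genes were sorted by the lower of their 2 coding shares, in steps chosen after the values were seen. The coding share is the measure the rule used, and reads were summed over the same clusters. The steps and the ratio are thus not independent. In these genes the 3' UTR held 43.9% of clusters with ZC3H7A and 56.2% with ZC3H7B. A high lower share requires few such clusters in both libraries, and what this does to the ratio was not tested. The median log2 ratio was 0.11 for 1143 genes under 30%, -0.30 for 410 genes from 30 to 50%, -0.49 for 283 genes from 50 to 70%, -0.61 for 137 genes from 70 to 90% and -1.08 for the 20 transcripts. In distinct reads it was 0.10, -0.25, -0.45, -0.41 and -0.93. The share called higher in the ZC3H7A library was 11.9%, 20.2%, 29.0% and 24.1% in the lower steps and 50% in the 20. With distinct reads these shares were 6.12%, 10.5%, 16.3% and 16.1%, and 15% in the 20, which did not stand above the 2 steps before them. In reads, the share called higher in the ZC3H7B library was 15.0%, 6.83%, 4.24% and 5.84%, and 5% in the 20, near the same 2 steps. The median T-to-C share in the ZC3H7A library was 93.2% in the lowest step and 93.6% from 70 to 90%. The last step holds 20 genes, and its distance from the step before it was not tested. Genes bound almost only in 3' UTR, 72 by the mirror of the rule, had a median log2 ratio of 0.42 and median T-to-C shares of 92.0% and 88.9%.

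**Figure D4:**
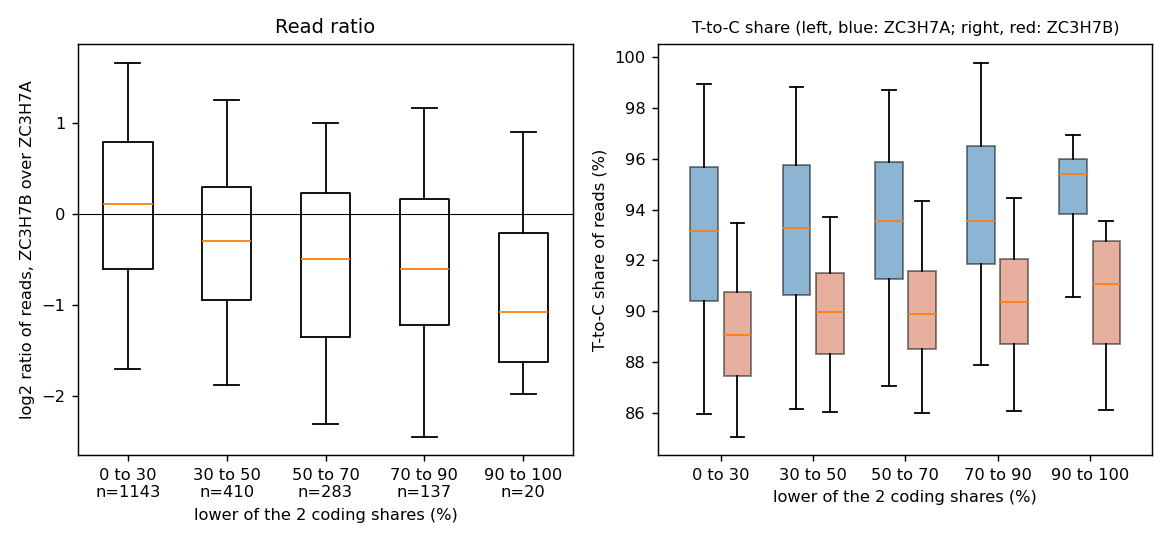
Log2 ratio of reads (left) and T-to-C share of reads in % (right, blue ZC3H7A, red ZC3H7B) for genes with at least 8 clusters in both libraries, in steps of the lower of the 2 coding shares (n = 1143, 410, 283, 137 and 20). Boxes show the quartiles and median and whiskers the 5th to 95th percentile over genes, and the median ratio goes from 0.11 in the lowest step to -1.08 in the 20 coding-bound transcripts.

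A larger set of genes passed the coding threshold in 1 library and failed it in the other. In the ZC3H7A library alone 67 genes reached 90%, and their median share in the ZC3H7B library was 75.7%. These 67 had 60 clusters outside coding sequence with ZC3H7A tagged and 484 with ZC3H7B tagged, 281 of them in the 3' UTR, while their coding clusters numbered 994 and 1295. Genes chosen for passing in 1 library and failing in the other must differ in this way. EPM2AIP1 was farthest from the group, with 18 of 20 coding clusters with ZC3H7A and 5 of 19 with ZC3H7B. FAM120B had 9 of 9 and 7 of 22, and PRPF4B, a splicing kinase, 19 of 20 and 12 of 35. In the ZC3H7B library alone 14 genes reached 90%, and these had 41 clusters outside coding sequence with ZC3H7A tagged and 14 with ZC3H7B tagged. Among them were PTPN13, a tyrosine phosphatase, with 18 of 18 against 5 of 9 in the ZC3H7A library, and the corepressor TRIM28 with 11 of 11 against 19 of 27. Within the 20 transcripts, 7 had the higher coding share with ZC3H7A tagged, 7 with ZC3H7B tagged and 6 had equal shares. Of the 1973 other genes with at least 8 clusters in both libraries, 76.4% were higher with ZC3H7A, 19.5% with ZC3H7B and 4.11% equal. The rule held both shares of the 20 at 90% or more and left little room for a difference. The balance within the 20 thus describes the choice and is not a finding.

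Relatives of the 20 transcripts, chosen after their values were seen, did not all share the pattern. FAT4 had 7 of 9 coding clusters with ZC3H7A and 31 of 34 with ZC3H7B, and FAT3 had 8 of 12 and 32 of 48. IRS2 was bound in its 3' UTR, with 5 of 5 clusters there with ZC3H7A and 16 of 17 with ZC3H7B, and IRS1 had no coding cluster in either. GNL3, a nucleolar GTPase related to GNL2, had 14 of 16 and 9 of 15 coding clusters. FAM111A had 3 of 4 and 3 of 9. MSH6, which acts with MutL proteins in mismatch repair, had 35 of 39 and 27 of 37. The FAM200A relative FAM200B had no called cluster with ZC3H7A and 2 with ZC3H7B, neither of them coding. Genes with close copies can share reads, and the sources used here do not state how such reads were assigned.

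Of 14 gene lists, 7 held at least 1 of the 20 transcripts, which are 1.00% of all genes with at least 8 clusters in both libraries. In 6 of the 7 lists the count was 1, too few to set a list apart from that share. Except for the ZNF genes, the lists were picked as families known for long coding sequences or coding-rich transcripts. They were also chosen with earlier results of these data known. Their coding shares and counts are therefore a description and were not tested. Cytosolic ribosome assembly held 3 among 31 genes with at least 8 clusters in both libraries, and the median coding share of those 31 was 66.7% with ZC3H7A and 57.9% with ZC3H7B. Lists of the kinetochore and spindle (1 of 21, ASPM), DNA replication and repair (1 of 24, MLH3) and chromatin regulators (1 of 26, SETD2) had medians of 76.5% and 58.3%, 78.6% and 68.0%, and 60.6% and 59.7%. Translation factors with tRNA synthetases (1 of 31, AARS) stood at 64.5% and 52.4%, and motors with large cytoskeletal proteins (1 of 13, AHNAK) at 71.4% and 58.7%. The list of large ubiquitin ligases and PIKK kinases had the highest medians, 91.7% and 79.5%, with BIRC6 as 1 of 7. Over all 1993 genes with at least 8 clusters the medians were 40.0% and 26.1%.

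The other 7 lists supplied no transcript to the group. Splicing factors with RNA helicases had 31 genes with at least 8 clusters in both libraries. SRRM2, a spliceosome scaffold, came nearest with 29 of 32 and 29 of 33. Chaperones had 28 such genes, led by the chaperonin subunit gene CCT2 with 15 of 16 and 14 of 16 and by HSP90AB1 with 21 of 24 and 22 of 25. The 42 chaperone genes compared had a median log2 ratio of reads of -1.04, near that of the 20. Of these, 18 were called higher with ZC3H7A and 2 with ZC3H7B, beside 18.0% and 18.2% of all genes compared. The 56 chromatin regulators compared stood at 0.71, with 5 and 18 called. Of 107 ZNF genes none was in the group, and their median coding shares were 50.0% and 33.3%. ZNF292 came nearest, with 44 of 48 and 66 of 78. Cohesin and condensin genes, nuclear pore genes, centrosome genes and mitochondrial metabolism genes also supplied none.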

How the data were processed

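PAR-CLIP libraries of HEK293 cells, 1 for each tagged protein, were grouped by sample title. Build hg19 and the tools STAR 2.5.2a, Bowtie and cutadapt are named, without roles, per the submitters' processing notes. Per the file headers, the deposited counts give clusters, reads and distinct reads summed over clusters, and clusters per region. A deposited fraction holds each gene's median T-to-C share, and a deposited score is the sum of that share over clusters, which was divided by the number of clusters. The exon count was read as coding sequence. Entries naming repeats or small RNA classes, 282 of 8486 and 407 of 9566, were left out of comparisons, which left 7218 genes listed in both tables. Transcripts and gene lists were chosen with earlier results of these data known. Named genes were the transcripts with the most clusters, reads or extreme ratios, those at the threshold, those with all clusters coding, and leading list members. All 20 are described, and genes of 1 library and relatives were added after their values were seen. With 1 library per protein no test was run. RefSeq assembly GRCh38.p14 served for names only. Coding and protein sequences were not used here. A gene near the threshold is not reported here. The calculation of log2 ratios and their intervals was checked on simulated counts. These were independent Poisson counts without PCR copies, so the check covers the arithmetic and not whether the intervals hold in these data. Python 3.11.15, pandas 2.3.3, numpy 2.4.6, scipy 1.17.1, matplotlib 3.10.9 and, for TMM scaling only, edgeR 4.0.16 in R 4.3.3 were used.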

Additional observations from a re-analysis of the deposited data

How the results depend on the processing

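The number of transcripts depended on the thresholds. It was 37 with at least 5 clusters, 11 with at least 12, 73 at a coding share of 0.8 and 5 at 1.0. It was 32 with start and stop codon clusters counted as coding and 38 over clusters with a named region. The median log2 ratio of the 20, -1.08, kept its sign under every alternative run. It was between -0.92 and -1.11 with distinct reads, total reads, TMM, a pseudocount or a minimum of 100 reads. Of those, total reads, TMM and the minimum of 100 reads shift all genes by the same amount. They cannot change where the 20 stand against other genes. The median was -0.40 with reads averaged per cluster and -0.55 with cluster numbers. In cluster numbers other genes with at least 8 clusters in both had -0.29. Genes whose lower coding share was 50 to 70% had -0.49, and those from 70 to 90% had -0.47, near the 20. The 10 calls towards ZC3H7A became 6 scaled to total reads, 3 with distinct reads, 1 with reads averaged per cluster and 0 with cluster numbers, beside 15.5%, 10.1%, 4.65% and 0.223% of all genes compared. The 1 of 20 with reads averaged per cluster is near its share over all genes. The 1 call towards ZC3H7B became 0 with reads averaged per cluster and 0 with cluster numbers, beside 6.18% and 0.321%. Scaling to total reads moved the median of all genes to 0.16. Over genes with at least 50 distinct reads in both libraries, the median T-to-C shares were 95.1% and 90.3% for 14 of the 20. Other such genes with at least 8 clusters in both had 92.6% and 89.3%. Protein length and amino acid shares were planned and not run. No paired analysis was possible because each protein has 1 library, and the replicate number they share pairs nothing. With 8 to 10 clusters, a coding share of 90% turns on 1 cluster.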
